A study of Mus musculus with 59 samples.

Results

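The genes described here are 38 of the 21706 genes in the expression tables, chosen by symbol as a set of endoplasmic reticulum (ER) chaperones, quality-control genes and regulators of the unfolded protein response. Of these, 26 make up an ATF6/XBP1 arm of chaperones, disulphide isomerases, degradation factors and translocation or export factors, 5 are stress sensors or their direct effector, and 7 make up an ATF4/CHOP arm. They were followed by RNA sequencing in 59 libraries of uterine tissue from 29 mated female mice of about 2 to 6 months. Knockout mice (epiERα-/-, genotype Esr1f/- Wnt7aCre/+) lacked estrogen receptor alpha in the uterine epithelium, where the Wnt7a promoter drives Cre recombinase. Controls were Esr1f/- females, so that mice of both genotypes carried 1 floxed and 1 null Esr1 allele and differed by the Cre transgene. Males were wild type, either Esr1f/f or C57BL/6. Tissue was taken at D3.5 or D0.5, where D0.5 is the day of the vaginal plug. Luminal epithelium (LE) was scraped out after 30 min in 0.5% dispase, digested uterus (DU) was a piece kept after that digestion, and uterus (U) was frozen undigested. LE came from 6 knockout and 4 control mice at D3.5 and from 7 knockout and 9 control mice at D0.5. DU came from 3 knockout and 3 control mice at D3.5 and from 3 knockout and 4 control mice at D0.5. U came from 5 knockout and 5 control mice at D3.5 and from 4 knockout and 6 control mice at D0.5. Of the U libraries labelled knockout at D3.5, that of mouse 33 had an Esr1 level like that of the controls.

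The unfolded protein response is the means by which a cell matches the folding capacity of the ER to its load of secreted and membrane proteins. The lumenal chaperone BiP (Hspa5) keeps a set of membrane sensors inactive. IRE1 (Ern1) splices Xbp1 mRNA and ATF6 is cut in the Golgi, and the transcription factors that result raise chaperone and degradation genes. PERK (Eif2ak3) phosphorylates eIF2 alpha, which slows translation in general but favours that of ATF4, whose targets include CHOP (Ddit3) and amino acid metabolism genes. ATF4 also answers to amino acid shortage and other signals through other eIF2 alpha kinases. Secretory epithelia such as the uterine luminal epithelium, which secretes under estrogen, depend on this folding machinery.

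Promoter stretches that hold known response elements are shown because the 2 arms are named after factors that bind DNA. RefSeq promoters of build GRCm38.p6 were found for 33 of the 38 genes, all but Atf6, Derl1, Ern2, Hyou1 and Manf. The 250 bases before the start of the gene were searched on both strands. The ER stress response element (ERSE, the letters CCAAT and CCACG with 9 bases between them), to which ATF6 binds together with NF-Y, was found in 9 of 23 promoters of the ATF6/XBP1 arm, in 0 of 3 of the sensors and in 0 of 7 of the ATF4/CHOP arm, against 0.13% of 27025 genes. These 9 were Calr, Canx, Creld2, Derl3, Dnajc3, Hsp90b1, Hspa5, Pdia6 and Syvn1. The arm was chosen by symbol under the names of these factors, so its share beside all genes is a description and not a test. The shorter ERSE-II (the letters ATTGG and CCACG with 1 base between them) was found in Herpud1 and in 0.037% of all genes. A UPRE (TGACGTGG) was found in Sec24d and in 0.603% of all genes. The longer ATF4-type element TGATGCAAT was found in none of the 33 and in 0.192% of all genes, while the core TTGCATCA was found in Chac1 and Herpud1 and in 0.918% of all genes. The core is part of the longer element read in reverse, and no other searched motifs overlapped in the stretches shown. They are written on the strand of the gene, and capitals mark the fixed letters of the element. In Creld2, Derl3 and Calr the element lies on the opposite strand and reads in reverse.
Hspa5: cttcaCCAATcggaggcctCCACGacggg
Creld2: cttctCGTGGcgagcctcaATTGGtccac
Derl3: tctacCGTGGgacttccccATTGGctagc
Calr: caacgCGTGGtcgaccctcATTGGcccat
Herpud1: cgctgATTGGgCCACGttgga
Chac1: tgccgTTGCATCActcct
The Hspa5 stretch lies at chr2:34772020-34772048 on the plus strand, with its element from 65 to 47 bases before the start. The Creld2 stretch lies at chr15:88819515-88819543 and the Derl3 stretch at chr10:75893237-75893265, both on the plus strand. The Calr stretch lies at chr8:84847070-84847098 on the minus strand. The Herpud1 stretch lies at chr8:94386372-94386392 and the Chac1 stretch at chr2:119351044-119351061, both on the plus strand.

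Library depth was 13.5 to 80.3 M estimated counts in LE, 14.1 to 46.2 M in DU and 11.3 to 108 M in U. Values per library are CPM, counts scaled to a common library size, which compare samples but not genes. Fold changes are log2 values with their standard error from edgeR's quasi-likelihood test, and a gene was called at a Benjamini-Hochberg adjusted p under 0.05 over all genes tested. Of the 38 genes, 37 passed the filter on low counts in every fit. Ern2, which encodes the IRE1 of gut epithelium, did not, with at most 0.622 CPM in any library and 0 in all LE controls. Esr1 was lower in knockout LE at D3.5 (log2 fold change -1.09, adjusted p = 0.00169) and at D0.5 (log2 fold change -2.02 ± 0.19, adjusted p = 2.97e-08). It was also lower in knockout DU at D0.5 (log2 fold change -0.66, adjusted p = 0.0123), and it was not called in the other 3 knockout comparisons. The summed level of 7 epithelial markers was 2786 to 4910 CPM in knockout LE at D0.5 and 6073 to 11607 CPM in control LE at D0.5. In bulk samples fewer cells of a type and less RNA per cell cannot be told apart.

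Per transcript length, the levels of the set in LE at D0.5 ranged widely, and they were not ranked against all genes. On the TPM scale, which is corrected for transcript length, Calr, a lectin chaperone, averaged 1340 ± 326 TPM in knockout LE and 1097 ± 196 TPM in control LE (SD, n = 7 and 9). Hspa5 averaged 1063 ± 317 TPM in knockout LE and 493 ± 117 TPM in control LE. Xbp1 averaged 521 ± 117 TPM in knockout LE and 426 ± 246 TPM in control LE. Of the ATF4/CHOP arm, Atf4 averaged 145 ± 58.7 TPM in knockout LE and 125 ± 18.9 TPM in control LE. Trib3, an inhibitor of AKT and of ATF4 itself, averaged 5.16 ± 3.72 TPM in knockout LE and 4.66 ± 3.14 TPM in control LE. Derl3, a degradation factor of secretory cells, averaged 5.73 ± 2.21 TPM in knockout LE and 0.730 ± 0.547 TPM in control LE.

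In LE at D0.5 most genes of the ATF6/XBP1 arm were higher in knockout than in control LE, while most of the ATF4/CHOP arm did not pass the test. The chaperones Hspa5, Hyou1, Creld2, Sdf2l1 and Manf were among those that rose. Of the 37 genes tested, 18 were higher in knockout LE, where 10.9% of all 15601 genes tested were called higher. Only Ern1 was lower, where 12.6% of all genes were called lower. The ATF6/XBP1 arm gave 16 of 26 genes higher, none lower and a median log2 fold change of 0.64. The sensors gave 0 of 4 higher and 1 lower. The ATF4/CHOP arm gave 2 of 7 higher, none lower and a median of 0.44, beside a median of -0.01 over all genes tested. All 26 fold changes of the ATF6/XBP1 arm were positive, as were 6 of 7 in the ATF4/CHOP arm. The arms were not tested against each other.

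The mean level of each arm was also taken per library, as a description. On the scale of mean log2(CPM + 0.05) over its 26 genes, the ATF6/XBP1 arm had a lowest, median and highest library of 7.80, 8.24 and 8.75 in knockout LE at D0.5, against 7.09, 7.52 and 7.78 in control LE at D0.5. The groups did not overlap. The ATF4/CHOP arm had 4.04, 4.93 and 5.72 in knockout LE, against 4.07, 4.49 and 4.84 in control LE. Knockout libraries at 4.93, 5.12, 5.15 and 5.72 lay above every control, the one at 4.04 lay just below the lowest control, and the rest lay inside the control range.

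**Figure D1:**
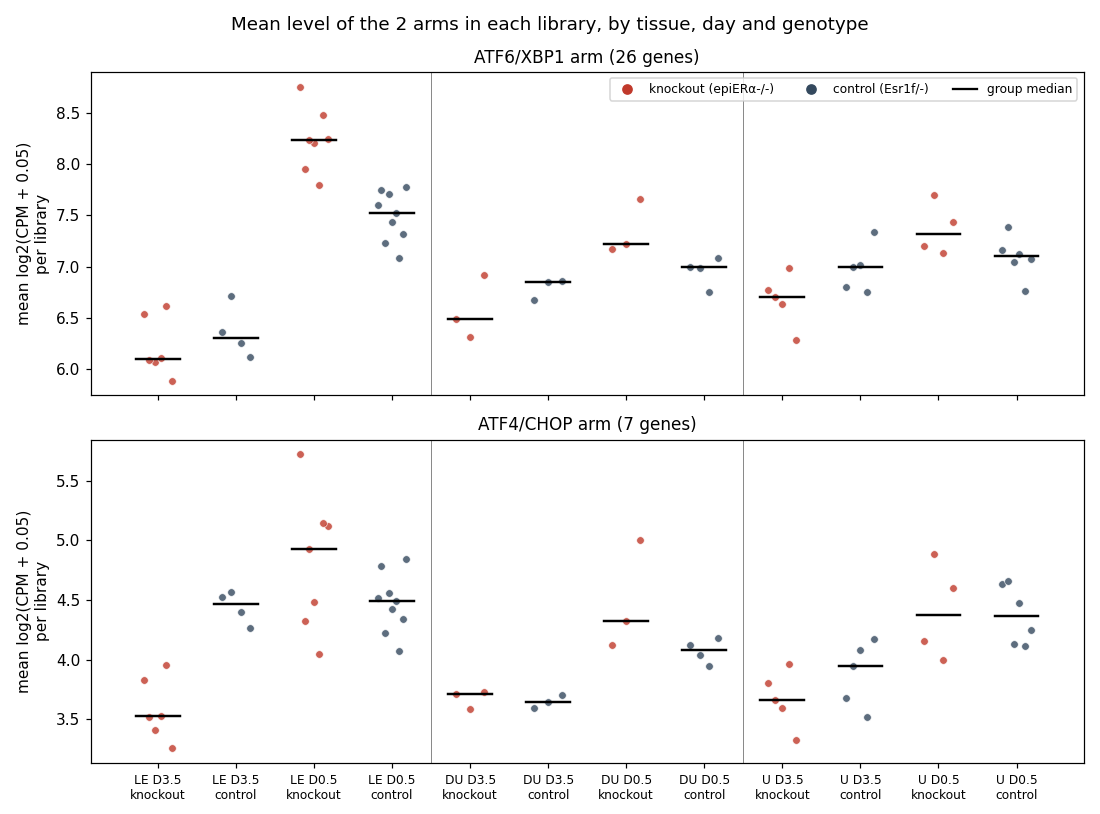
Mean log2(CPM + 0.05) of the 26 genes of the ATF6/XBP1 arm (top) and the 7 genes of the ATF4/CHOP arm (bottom) in each library, by tissue, day and genotype, with group medians as black lines. In LE at D0.5 every knockout point of the upper plot lies above every control point (medians 8.24 in knockout and 7.52 in control LE). At D3.5 it is the lower plot in which the genotypes separate in LE, with medians of 3.52 in knockout and 4.46 in control. Of its 7 genes only Ppp1r15a and Asns were without overlap there on their own.

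Among the lumenal chaperones and co-chaperones 8 of 9 were higher in knockout LE at D0.5, with a median log2 fold change of 1.01. Hspa5, which encodes BiP, had 1551, 2577, 1694, 3742, 2332, 2459 and 2873 CPM in the 7 knockout LE libraries, against a lowest, median and highest of 706, 1282 and 1695 CPM in the 9 control LE libraries. The groups overlapped only through 2 knockout libraries and 1 control, and the log2 fold change was 1.04 ± 0.22 (adjusted p = 0.000748). Creld2, a lumenal isomerase-like co-chaperone, had 123, 210 and 365 CPM as the lowest, median and highest knockout values, against 61.1, 72.6 and 87.0 CPM in controls. It did not overlap between the groups, and it had the smallest adjusted p of the 37 genes (log2 fold change 1.53 ± 0.19, adjusted p = 1.29e-06). Hyou1, an ER nucleotide exchange factor for BiP, had 506, 772 and 1381 CPM in knockout LE, against 201, 316 and 519 CPM in controls, so that 1 knockout library lay below the highest control. Its log2 fold change was 1.29 ± 0.22 (adjusted p = 6.95e-05). Sdf2l1, which works with ER J-proteins on BiP, had 74.0, 110 and 187 CPM in knockout LE, against 28.6, 49.7 and 61.3 CPM in controls. The groups did not overlap, at a log2 fold change of 1.47 ± 0.29 (adjusted p = 0.000444).

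The remaining lumenal chaperones had smaller fold changes in the same direction. Manf, a secreted ER factor that binds BiP, had 184, 283 and 391 CPM as the lowest, median and highest knockout LE values, against 95.8, 151 and 184 CPM in controls. The lowest knockout library met the highest control, at a log2 fold change of 1.01 ± 0.22 (adjusted p = 0.00112). The ER form of HSP90, Hsp90b1, was higher by a log2 fold change of 0.91 ± 0.19 (adjusted p = 0.0009). The J-proteins Dnajb11 (log2 fold change 0.78 ± 0.14, adjusted p = 0.000204) and Dnajc3 (log2 fold change 0.78 ± 0.18, adjusted p = 0.00224) were also higher. The J-protein Dnajb9, a repressor of IRE1, was not called at a log2 fold change of 0.64 (adjusted p = 0.0711).

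Fewer of the enzymes and lectins were called, and degradation factors were mixed. Of the 4 disulphide isomerases only Pdia4 was higher (log2 fold change 0.80 ± 0.19, adjusted p = 0.00265), with a median log2 fold change of 0.37 over the 4. Canx, which binds glycoproteins, was higher at 0.43 ± 0.16 (adjusted p = 0.0459), and Calr had a log2 fold change of 0.22 that was not called. Among 8 genes of ER-associated degradation 5 were higher: Selenos at a log2 fold change of 0.79 ± 0.15 (adjusted p = 0.00028), Herpud1, Derl3, the ubiquitin ligase Syvn1 at 0.64 ± 0.17 (adjusted p = 0.00721) and Derl1 at 0.40 ± 0.11 (adjusted p = 0.0115). Sel1l, Edem1 and Derl2 were not called, at log2 fold changes of 0.40, 0.12 and 0.02. Of the translocation and export genes only Ssr1, a subunit of the complex beside the translocon, was higher (log2 fold change 0.43 ± 0.14, adjusted p = 0.0248).

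Herpud1, a scaffold of the degradation machinery, had 173, 234, 251, 386, 459, 528 and 439 CPM in the 7 knockout LE libraries at D0.5, against a lowest, median and highest of 94.7, 148 and 297 CPM in controls. Control mouse 1 carried the 297 CPM and the other 8 controls reached at most 179 CPM, and the lowest knockout lay below 2 of the controls (log2 fold change 1.20 ± 0.24, adjusted p = 0.000567). Derl3 had 2.87, 5.79 and 8.42 CPM as the lowest, median and highest knockout values, against 0, 0.638 and 1.50 CPM in controls. The groups did not overlap, at a log2 fold change of 2.90 ± 0.72 (adjusted p = 0.00398). Without overlap between the genotypes in the upward direction were Creld2, Sdf2l1, Derl3 and Selenos, 4 of 37 genes, beside 3.08% of all genes tested.

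None of the sensors was called higher. Ern1 had 40.4, 67.6 and 79.7 CPM as the lowest, median and highest knockout LE values at D0.5, against 48.2, 87.3 and 328 CPM in controls, where the 328 CPM belonged to control mouse 1. It was called lower at a log2 fold change of -0.85 ± 0.31 (adjusted p = 0.0433), and the call was lost with another scaling, on TPM and in a fit of these groups alone. Xbp1, the product on which IRE1 acts, had 517, 767 and 1166 CPM in knockout LE, against 363, 612 and 1661 CPM in controls, and its log2 fold change of 0.23 ± 0.25 was not called (adjusted p = 0.571). The groups overlapped along most of their range, and the highest control was again mouse 1. The tables hold total Xbp1 and do not separate the spliced form. Atf6 (log2 fold change 0.31, adjusted p = 0.199) and Eif2ak3 (log2 fold change 0.32, adjusted p = 0.221) were not called.

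In the ATF4/CHOP arm, Atf4 itself had 92.7, 130, 143, 152, 260, 313 and 343 CPM in the 7 knockout LE libraries at D0.5, against a lowest, median and highest of 144, 179 and 226 CPM in controls. The knockout values lay on both sides of the control range, with 3 below and 3 above it, and the log2 fold change was 0.18 ± 0.21 (adjusted p = 0.601). Ddit3, the transcription factor CHOP, had 10.3, 20.1 and 39 CPM in knockout LE, against 6.52, 11.8 and 18.1 CPM in controls. The groups overlapped and Ddit3 was higher by a log2 fold change of 0.79 ± 0.24 (adjusted p = 0.0167). Sesn2, a stress-induced regulator of mTORC1, had 22.5, 47.7 and 85.3 CPM in knockout LE, against 14.9, 25.9 and 44.1 CPM in controls, and was higher by 0.77 ± 0.23 on the log2 scale (adjusted p = 0.0145). The calls of Ddit3 and Sesn2 were both lost without knockout mouse 27.

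The other ATF4/CHOP genes were not called in LE at D0.5. Chac1, a glutathione-degrading enzyme, had 3.65, 11.3 and 24.8 CPM as the lowest, median and highest knockout values, against 1.88, 5.58 and 13.2 CPM in controls (log2 fold change 1.07 ± 0.43, adjusted p = 0.075). Trib3 had 3.01, 7.36 and 20.6 CPM in knockout LE, against 3.58, 6.10 and 20.5 CPM in controls (log2 fold change 0.13 ± 0.52, adjusted p = 0.9). Asns, asparagine synthetase, had 8.78, 21.4 and 43.5 CPM in knockout LE, against 10.9, 16.0 and 25.5 CPM in controls (log2 fold change 0.44, adjusted p = 0.231). All 3 overlapped between the genotypes. Ppp1r15a, the phosphatase subunit that reverses eIF2 alpha phosphorylation, had a log2 fold change of -0.48 (adjusted p = 0.264).

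Other cell types moved with genotype in these LE libraries. Of 8 tested neutrophil markers 7 were higher and 1 was lower in knockout LE at D0.5, and the summed level of the 9 markers was 935 to 3478 CPM in knockout LE, against 18.7 to 405 CPM in control LE, with none of the 9 at 0 in a whole group. Of 4 tested gland markers 3 were higher, with Prss28 and Prss29 at 0 in controls. Their summed levels were 79.0 to 1206 CPM (median 185) in knockout LE and 114 to 665 CPM (median 345) in control LE. Of 7 macrophage markers 5 were higher and 1 lower, with summed levels of 122 to 153 CPM in knockout LE and 198 to 433 CPM in control LE. The calls and the sum of the macrophage markers went opposite ways, so the list gives no single direction. None of the 9 stromal markers was called, with summed levels of 941 to 4699.6 CPM in knockout LE and 579 to 6338 CPM in control LE. Their part in the result was not tested.

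The ERSE was also set beside this comparison, as a description of the 23 genes of the ATF6/XBP1 arm with a RefSeq promoter and with no test. Hyou1, Manf and Derl1, all called higher in knockout LE at D0.5, had no RefSeq promoter and are left out. Of the 9 with the element 7 were higher in knockout LE at D0.5, with a median log2 fold change of 0.78. Of the 14 without it 6 were higher, with a median of 0.44. The Calr promoter printed above holds the element and Calr was not called. In DU at D0.5, described further on, 2 of the 9 and 2 of the 14 were higher in the knockout. At D3.5 against D0.5, 8 of the 9 and all 14 of the others were lower in knockout LE, with medians of -2.08 and -1.80. In control LE 5 of the 9 and 11 of the 14 were lower at D3.5, with medians of -1.01 and -1.27.

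Related genes outside the set were mixed at D0.5 in LE. Of 27 tested translocon and glycosylation genes 7 were higher and 3 lower, with Ssr4 at a log2 fold change of -1.08 (adjusted p = 6.42e-05), Tusc3 at -0.64 (adjusted p = 0.00119) and Ssr3 at 0.58 (adjusted p = 0.00558). Of 35 further ER folding genes 6 were higher and 5 lower, among them Sdf4 at -0.94 (adjusted p = 8.25e-07) and Sil1, a nucleotide exchange factor for BiP, at -1.24 (adjusted p = 3.57e-06). Of 23 other degradation genes none was higher and 4 were lower, led by the lectin Erlec1 at -0.91 (adjusted p = 5.89e-05). Of 32 genes of ER to Golgi transport 6 were higher and 1 lower. Of 39 further ATF4 targets 6 were higher and 5 lower, with the transaminase gene Gpt2 at -1.64 (adjusted p = 0.000621), the amino acid transporter Slc38a2 at -1.14 (adjusted p = 0.000633) and the transcription factor Cebpb at 0.92 (adjusted p = 0.00122). Of 19 cytosolic heat shock genes 1 was higher and 3 were lower, with Hspa1b at -1.0 (adjusted p = 0.00356). Of 6 eIF2 alpha kinase and phosphatase genes outside the set 1 was higher. Of 9 genes of ATF6-like factors and their processing 1 was lower, and of 6 mitochondrial folding and protease genes 1 was higher.

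In LE at D3.5 the few genes of the set that were called were lower in the knockout and came from both arms and from the sensors. The share of all genes called higher is not given here, so the lack of higher calls cannot be judged against it. Of 37 genes 4 were lower in knockout LE, beside 5.7% of all genes called lower. These were 1 of 26 in the ATF6/XBP1 arm, 1 of 4 sensors and 2 of 7 in the ATF4/CHOP arm. The median log2 fold change was -0.17 in the ATF6/XBP1 arm and -0.71 in the ATF4/CHOP arm, beside -0.01 over all genes. Without control mouse 14 the ATF4/CHOP median was -0.24. On TPM the medians were 0.24 and -0.21, beside 0.38 over all genes, so the sign of the ATF6/XBP1 median turned while both arms stayed below the shift of all genes. All 4 called genes were without overlap between the genotypes, beside 4.5% of all genes without overlap in the downward direction. Without knockout mice 35, 36 and 37 only the call of Ppp1r15a was kept, and those of Asns, Eif2ak3 and Hsp90b1 were lost.

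Ppp1r15a had 51.3, 48.7, 40.6, 30.5, 29.4 and 38.9 CPM in the 6 knockout LE libraries at D3.5, against 209, 54.2, 221 and 88.5 CPM in the 4 controls. Every knockout lay below the lowest control, although 1 control came close, and the log2 fold change was -1.84 ± 0.37 (adjusted p = 0.00103). Asns had 10.7, 15.1 and 18.8 CPM as the lowest, median and highest knockout values, against 43.4, 37.7, 40.4 and 31.9 CPM in controls. The gap between the genotypes was wider than either group's range, and the log2 fold change was -1.36 ± 0.32 (adjusted p = 0.00475). Eif2ak3, the sensor PERK, had 21.0, 23.9 and 26.5 CPM in knockout LE, against 37.8, 28.4, 42.3 and 61.4 CPM in controls (log2 fold change -0.84 ± 0.23, adjusted p = 0.0134). Hsp90b1 had 678, 619, 850, 807, 756 and 711 CPM in knockout LE, against 1280, 950, 1098 and 1838 CPM in controls (log2 fold change -0.81 ± 0.24, adjusted p = 0.0266). All knockout libraries were low in both genes, and both calls were lost on TPM and without control mouse 16. The call of Hsp90b1 was also lost without control mouse 11 or knockout mouse 32.

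Hspa5, Creld2, Hyou1, Sdf2l1, Manf, Herpud1 and Derl3 were not called in LE at D3.5. Hspa5 had 223, 316 and 570 CPM as the lowest, median and highest knockout values, against 538, 317, 467 and 561 CPM in controls (log2 fold change -0.36 ± 0.28, adjusted p = 0.45). Creld2 had 19.4, 29.8 and 43.4 CPM in knockout LE, against 44.3, 39.2, 35.8 and 40.2 CPM in controls (log2 fold change -0.33, adjusted p = 0.431). Hyou1 had 96.9, 125 and 146 CPM in knockout LE, against 146, 156, 180 and 305 CPM in controls (log2 fold change -0.68, adjusted p = 0.106). The groups overlapped or touched in each of the 3. Sdf2l1 had 3.83, 8.16 and 25.5 CPM in knockout LE, against 8.24, 15.2, 9.17 and 14.0 CPM in controls. Manf had 20.3, 32.7 and 68.4 CPM in knockout LE, against 54.9, 46.5, 35.0 and 31.6 CPM in controls. Herpud1 had 21.0, 27.8 and 53.5 CPM in knockout LE, against 26.5, 23.8, 29.5 and 28.6 CPM in controls. The control values lay inside the knockout range in these 3 genes. Derl3 was near 0, with 0, 0.412 and 0.740 CPM in knockout LE, against 0, 0, 0 and 0.898 CPM in controls.

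The regulators likewise overlapped at D3.5. Xbp1 had 81.2, 95.3 and 138 CPM as the lowest, median and highest knockout LE values, against 116, 104, 143 and 153 CPM in controls (log2 fold change -0.35, adjusted p = 0.539). Atf4 had 62.3, 73.3 and 103 CPM in knockout LE, against 118, 80.4, 92.3 and 69.1 CPM in controls (log2 fold change -0.19, adjusted p = 0.713). Ddit3 had 7.59, 8.38 and 12.6 CPM in knockout LE, against 11.0, 12.9, 7.57 and 7.06 CPM in controls (log2 fold change -0.10, adjusted p = 0.882). None of the 3 separated the genotypes. Trib3 had 0.153, 0.680 and 3.08 CPM in knockout LE, against 2.66, 2.48, 1.57 and 3.70 CPM in controls (log2 fold change -1.19, adjusted p = 0.285). Chac1 had 0.967, 2.81 and 5.00 CPM in knockout LE, against 2.40, 9.13, 2.90 and 3.19 CPM in controls (log2 fold change -0.71, adjusted p = 0.466). Both stood at a few CPM with overlapping groups. As a mean over its 7 genes, the ATF4/CHOP arm had 3.25, 3.52 and 3.96 on the mean log2(CPM + 0.05) scale in knockout LE, against a lowest, median and highest of 4.27, 4.46 and 4.56 in control LE, without overlap. Of these 7 genes only Ppp1r15a and Asns were without overlap on their own. The ATF6/XBP1 arm had 5.89, 6.10 and 6.61 in knockout LE, against 6.12, 6.31 and 6.71 in control LE.

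At D3.5 the neutrophil markers summed to 4.01 to 18.4 CPM in knockout LE, against 7.99 to 15.2 CPM in control LE. The gland markers summed to 59.4 to 167 CPM in knockout LE, against 4.81 to 9.21 CPM in control LE, with 3 of 4 tested markers higher. Erythroid markers summed to 29.0 to 475 CPM in knockout LE, against 505 to 2688 CPM in control LE, without overlap. The part of the gland and erythroid markers in the result was not tested. Of 39 further ATF4 targets 2 were higher and 7 lower in knockout LE at D3.5, among them the aminoacyl-tRNA synthetase genes Gars at a log2 fold change of -1.66 (adjusted p = 4.95e-06) and Iars at -0.99 (adjusted p = 0.00253) and the proline synthesis gene Aldh18a1 at -1.16 (adjusted p = 0.000641). The other ER lists gave at most 3 genes called in a direction.

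**Figure D2:**
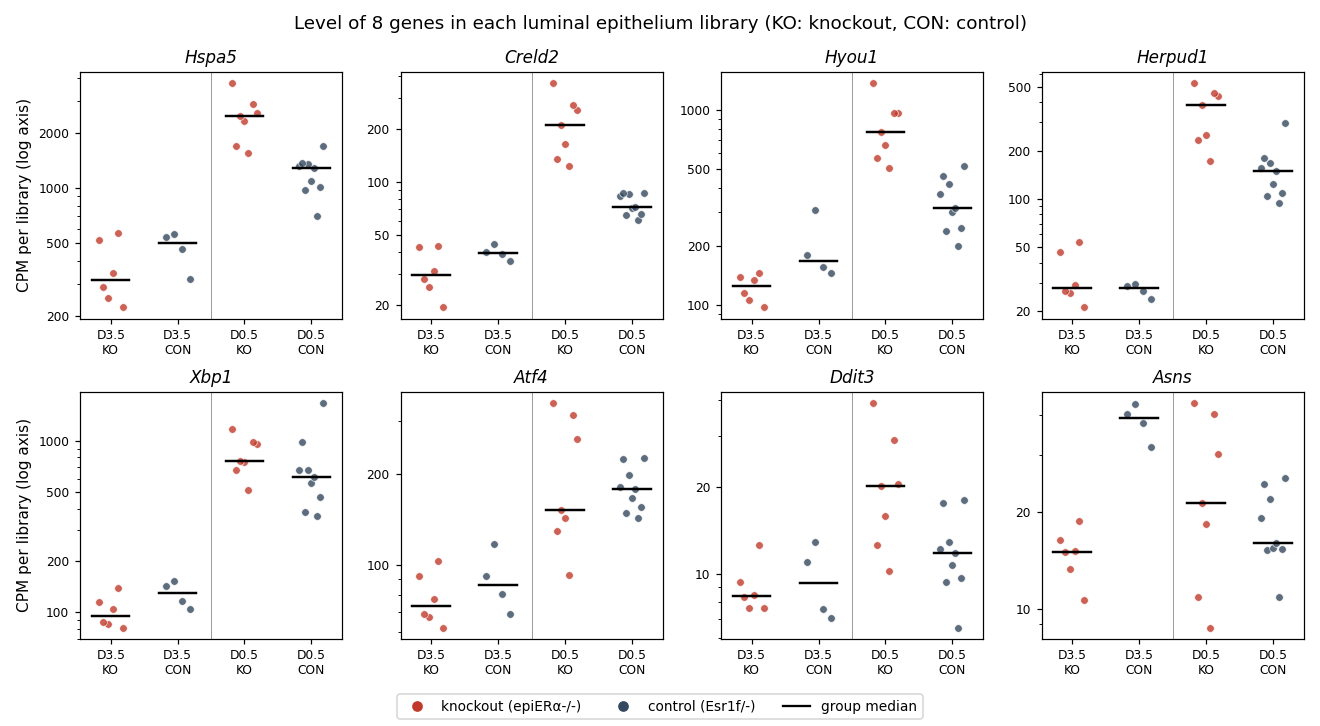
CPM on a log axis of 4 ATF6/XBP1-arm genes (Hspa5, Creld2, Hyou1, Herpud1), Xbp1 and 3 ATF4/CHOP-arm genes (Atf4, Ddit3, Asns) in each LE library, by day and genotype, with group medians as black lines. Creld2 in knockout LE at D0.5 lies at 123 CPM or above and in control LE at 87.0 CPM or below, while Asns separates the genotypes at D3.5, with at most 18.8 CPM in knockout and at least 31.9 CPM in control LE.

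The test of the difference between days addressed whether the knockout effect in LE depended on the day. The difference, the effect at D3.5 minus that at D0.5, was called for 16 of 37 genes, all negative, beside 6.99% of all genes called negative. It was called for 13 of 26 genes of the ATF6/XBP1 arm (median -0.90), for 1 of 4 sensors and for 2 of 7 genes of the ATF4/CHOP arm (median -1.32), beside a median of 0.01 over all genes. All 9 lumenal chaperones and co-chaperones were called, with a median of -1.43. The smallest adjusted p values of the ATF6/XBP1 arm belonged to Creld2 at -1.86 ± 0.30 (adjusted p = 0.000114), Hyou1 at -1.97 ± 0.35 (adjusted p = 0.000267), Hsp90b1 at -1.72 ± 0.31 (adjusted p = 0.000345), Dnajb11 at -1.02 ± 0.23 (adjusted p = 0.00329) and Selenos at -1.02 ± 0.24 (adjusted p = 0.00423). Hspa5 differed by -1.40 (adjusted p = 0.00614). Of the sensors only Eif2ak3 was called, at -1.16 (adjusted p = 0.00637). Of the ATF4/CHOP arm Asns was called at -1.81 ± 0.41 (adjusted p = 0.00288) and Ppp1r15a at -1.36 (adjusted p = 0.0435). This test uses the same LE libraries as the separate comparisons of each day. On TPM the count of called genes was 10, with all genes shifted by 0.36.

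**Figure D3:**
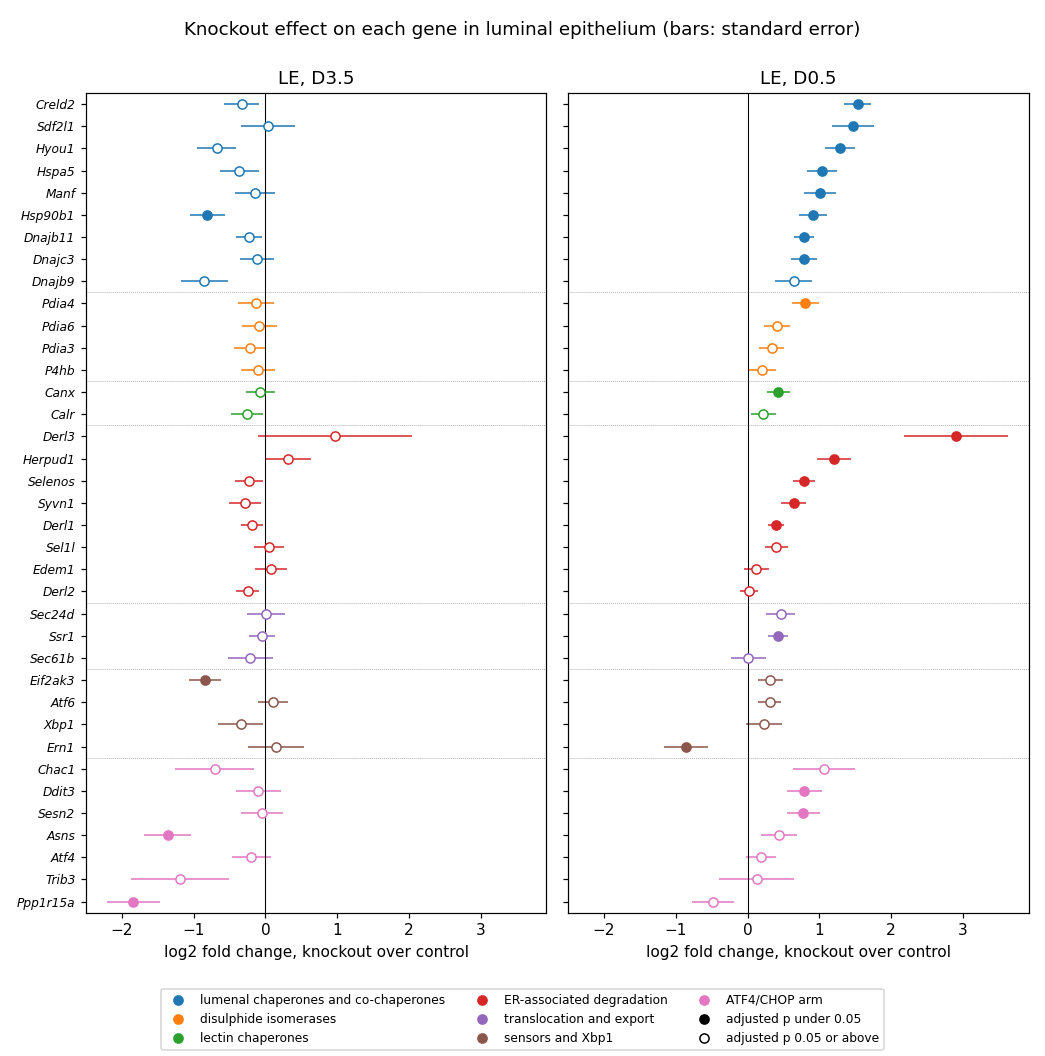
Log2 fold change of knockout over control in LE for the 37 tested genes at D3.5 (left) and D0.5 (right), grouped and coloured by role, with standard errors as bars and filled points for adjusted p under 0.05. At D0.5 the points of the ATF6/XBP1 arm all lie right of 0, up to Derl3 at 2.90, while at D3.5 the 4 filled points all lie left of 0, down to Ppp1r15a at -1.84.

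In DU at D0.5 knockout against control called 6 of 37 genes higher and 1 lower, beside 3.89% of all 16194 genes called higher and 4.17% called lower. The knockout DU libraries came from mice 25, 26 and 27, a part of the knockout mice of LE. In LE these mice had the highest knockout values of Atf4 (260, 313 and 343 CPM, against 92.7 to 152 CPM in the others). The same held for Herpud1 in LE (459, 528 and 439 CPM, against 173 to 386 CPM). It did not hold for Hspa5, which was highest in mouse 24 at 3742 CPM. Herpud1 had 223, 162 and 225 CPM in knockout DU, against 92.7, 88.7, 111 and 100 CPM in control DU, at a log2 fold change of 1.05 ± 0.15 (adjusted p = 0.00102). Hspa5 had 943, 847 and 1542 CPM in knockout DU, against 554, 579, 730 and 524 CPM in control DU, at 0.90 ± 0.24 (adjusted p = 0.0384). Ddit3 had 20.1, 23.8 and 26.8 CPM in knockout DU, against 15.7, 14.0, 16.7 and 15.7 CPM in control DU, at 0.60 ± 0.16 (adjusted p = 0.0356). Each knockout value lay above each control value in the 3 genes. Creld2 at 0.97 ± 0.24 (adjusted p = 0.0279), Dnajb9 at 0.51 ± 0.13 (adjusted p = 0.034) and Hyou1 at 0.87 ± 0.23 (adjusted p = 0.0375) were the other genes called higher.

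Ern1 was the gene called lower in DU at D0.5, with 75.1, 64.2 and 64.6 CPM in knockout DU, against 236, 118, 102 and 92.4 CPM in control DU (log2 fold change -1.01 ± 0.26, adjusted p = 0.0305). All knockouts lay below all controls, of which mouse 1 was the highest. Xbp1 was not called at a log2 fold change of 0.50 (adjusted p = 0.206), with 644, 526 and 725 CPM in knockout DU, against 711, 384, 334 and 353 CPM in control DU, nor was Atf4 at 0.35 (adjusted p = 0.24). The median log2 fold change was 0.33 in the ATF6/XBP1 arm and 0.37 in the ATF4/CHOP arm, beside 0.01 over all genes. Without overlap in the upward direction were 9 of 37 genes, beside 8.53% of all genes. Of the higher calls, that of Herpud1 alone was kept both on TPM and in a fit of these 7 libraries alone. Without control mouse 5 or knockout mouse 27 only 1 gene of the set was called, and without control mouse 9 only 3. Neutrophil markers summed to 1233 to 3029 CPM in knockout DU at D0.5, against 82.7 to 639 CPM in control DU, with 5 of 8 tested markers higher and none of the 9 at 0 in a whole group, and 4 of 9 stromal markers were higher. B and plasma cell markers summed to 62.6 to 101 CPM in knockout DU, against 295 to 489.9 CPM in control DU. Their part in the result was not tested.

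In DU at D3.5 none of the 37 genes was called by edgeR, where 0.574% of all genes were called in either direction. An unadjusted p under 0.05 was found for 6 of the 37, beside 1319 of all 16194 genes tested. DESeq2 called 1 gene of the set. Ddit3 had 17.0, 16.5 and 16.1 CPM in knockout DU, against 12.6, 10.4 and 8.54 CPM in control DU, and its adjusted p of 0.165 was the smallest. Xbp1 had 160, 146 and 190 CPM in knockout DU, against 214, 259 and 274 CPM in control DU (log2 fold change -0.59 ± 0.25, adjusted p = 0.558). Both separated the genotypes without overlap. In the downward direction 7 of 37 genes were without overlap, Dnajb9, Edem1, Ern1, Atf6, Eif2ak3, Xbp1 and Asns, beside 10.3% of all genes. The arm medians were -0.19 for ATF6/XBP1 and -0.02 for ATF4/CHOP. B and plasma cell markers summed to 115 to 289.9 CPM in knockout DU at D3.5, against 509.6 to 829 CPM in control DU, and endothelial markers to 503 to 659 CPM in knockout DU, against 764 to 802 CPM in control DU. Neither list overlapped between the genotypes, and their part in the result was not tested.

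In U at D0.5 only Herpud1 was higher in the knockout, beside 2.02% of all 16232 genes. It had 113, 220, 170 and 251 CPM in knockout U, against 84.5, 111, 113, 92.9, 147 and 108 CPM in control U (log2 fold change 0.79 ± 0.21, adjusted p = 0.0304). Knockout mouse 21 lay inside the control range, and mice 25, 26 and 27, those of knockout DU, lay above it. The call of Herpud1 was lost in 6 of the 10 fits that left out 1 library of these groups and in the fit of these groups alone, and DESeq2 called 3 genes of the set. Hspa5 had 960, 744, 814 and 1600 CPM in knockout U, against a lowest, median and highest of 484, 671 and 766 CPM in control U, and was not called (log2 fold change 0.69, adjusted p = 0.177). Xbp1 (log2 fold change 0.43, adjusted p = 0.226), Atf4 (0.12, adjusted p = 0.861) and Ddit3 (0.36, adjusted p = 0.594) were not called either. The median log2 fold change was 0.25 in the ATF6/XBP1 arm and 0.12 in the ATF4/CHOP arm. Neutrophil markers summed to 1578 to 3040 CPM in knockout U at D0.5, against 77.7 to 959 CPM in control U, with 4 of 8 tested higher. B and plasma cell markers summed to 68.0 to 105 CPM in knockout U, against 283 to 552 CPM in control U. The part of both lists in the result was not tested.

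In U at D3.5 none of the 37 genes was called by edgeR, beside 0.0185% of all genes, and DESeq2 called 0. An unadjusted p under 0.05 was found for 3 of the 37, beside 682 of all 16232 genes tested. The U library at D3.5 labelled knockout mouse 33 had an Esr1 level like that of the controls, and without it 0 genes of the set were called as well. Xbp1 had 149, 236, 204, 237 and 207 CPM in libraries labelled knockout, against 239, 236, 314, 368 and 315 CPM in controls. Only the 2 nearest libraries of each group met, and the log2 fold change of -0.51 ± 0.18 was not called (adjusted p = 0.77). Hspa5 had 319, 525, 412, 676 and 399 CPM in libraries labelled knockout, against 482, 458, 1058, 417 and 540 CPM in controls, with no separation. The arm medians were -0.30 for ATF6/XBP1 and -0.32 for ATF4/CHOP. Erythroid markers summed to 85.7 to 304 CPM in libraries labelled knockout and to 325 to 914 CPM in controls, and their part in these values was not tested.

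Whether the knockout effect of LE differed from that of U was tested directly, in a fit that did not pair the tissues of a mouse. At D0.5 the difference, LE minus U, was called for none of the 37 genes by edgeR, beside 1.63% of all genes in either direction. An unadjusted p under 0.05 was found for 6 of the 37, beside 1719 of all 16665 genes tested. DESeq2 called 1 gene of the set. With mouse as a block 0 genes of the set were called at D0.5, beside 1.58% of all genes in either direction. Without the block the median difference was 0.38 in the ATF6/XBP1 arm and 0.39 in the ATF4/CHOP arm. At D3.5 Ppp1r15a was called, at -1.50 ± 0.45 (adjusted p = 0.0483), beside 1.46% of all genes called negative. No gene of the set was called there with mouse as a block, beside 2.31% of all genes in either direction. Whether the effect differed between days was also tested in U and DU. In U no gene was called by edgeR, beside 1.43% of all genes, while DESeq2 called 2. An unadjusted p under 0.05 was found for 13 of the 37, beside 1684 of all 16232 genes tested. This test and that of LE minus U at D3.5 counted the U library labelled knockout mouse 33 as a knockout. In DU Herpud1 was called at -1.04 ± 0.22 (adjusted p = 0.0277), beside 0.932% of all genes called negative. Without 1 library at a time 0 to 3 genes of the set were called in DU, with 0 without control mouse 5, 14 or 16 or knockout mouse 25, 27, 32 or 34, and 0 were called on TPM.

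Between the days in LE both arms had larger median changes in the knockout than in any comparison of knockout with control within a day. In knockout LE 33 of 37 genes were lower at D3.5 than at D0.5, beside 20.2% of all genes called lower. These were 25 of 26 genes of the ATF6/XBP1 arm, 3 of 4 sensors and 5 of 7 genes of the ATF4/CHOP arm. The median log2 fold change was -1.86 in the ATF6/XBP1 arm and -1.22 in the ATF4/CHOP arm, beside 0.04 over all genes. In control LE 24 genes were lower and 3 higher at D3.5, beside 22.8% of all genes called lower and 21.2% called higher. The ATF6/XBP1 arm gave 19 lower and 1 higher with a median of -1.13, all 4 sensors were lower, and the ATF4/CHOP arm gave 1 lower and 2 higher with a median of -0.28.

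Chaperones, enzymes and degradation genes led the day effect. In knockout LE the ATF6/XBP1-arm genes of smallest adjusted p were Creld2 at a log2 fold change of -2.78 ± 0.23 (adjusted p = 4.94e-10), Pdia6 at -2.63 ± 0.22 (adjusted p = 8.16e-10), Herpud1 at -3.39 ± 0.30 (adjusted p = 1.77e-09), Ssr1 at -1.78 ± 0.16 (adjusted p = 1.99e-09), Manf at -2.93 ± 0.27 (adjusted p = 2.23e-09) and Hyou1 at -2.76 ± 0.26 (adjusted p = 4.06e-09). In control LE they were the isomerase Pdia6 at -2.13 ± 0.25 (adjusted p = 9.94e-08), the mannosidase-like Edem1 at -1.87 ± 0.23 (adjusted p = 1.77e-07), Herpud1 at -2.50 ± 0.34 (adjusted p = 9.31e-07), Ssr1 at -1.30 ± 0.18 (adjusted p = 1.14e-06), the isomerase P4hb at -1.77 ± 0.24 (adjusted p = 1.27e-06) and Calr at -1.61 ± 0.23 (adjusted p = 2.16e-06). Hspa5 fell by 2.75 ± 0.26 on the log2 scale in knockout LE (adjusted p = 4.32e-09) and by 1.35 ± 0.28 in control LE (adjusted p = 0.000256). All 9 lumenal chaperones were lower in knockout LE and 6 of 9 in control LE, where Hsp90b1 had a log2 fold change of 0.17 ± 0.23 (adjusted p = 0.577). The exception in the arm was Syvn1, which was not called in knockout LE (log2 fold change -0.39, adjusted p = 0.106) and was higher at D3.5 in control LE (0.54 ± 0.20, adjusted p = 0.0335).

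Xbp1 was among the sensors and effectors that fell most between the days. Its log2 fold change was -3.04 ± 0.30 in knockout LE (adjusted p = 8.69e-09) and -2.46 ± 0.34 in control LE (adjusted p = 1.22e-06). Every D3.5 library of LE lay at 153 CPM or below, against at least 363 CPM at D0.5. Eif2ak3 was lower at D3.5 by log2 fold changes of -2.06 ± 0.21 in knockout LE (adjusted p = 1.51e-08) and -0.90 ± 0.22 in control LE (adjusted p = 0.00195). Atf6 was lower by -0.88 ± 0.19 in knockout LE (adjusted p = 0.000388) and by -0.68 ± 0.20 in control LE (adjusted p = 0.00804). Ern1 was lower in control LE at -1.33 ± 0.38 (adjusted p = 0.00633) and was not called in knockout LE at -0.33 ± 0.33 (adjusted p = 0.456).

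The ATF4/CHOP arm divided in control LE, where some genes were higher at D3.5 and others lower. Atf4 was lower at D3.5 in knockout LE (log2 fold change -1.38 ± 0.24, adjusted p = 4.29e-05) and in control LE (-1.0 ± 0.27, adjusted p = 0.00311). Asns was lower at D3.5 in knockout LE (-0.73 ± 0.28, adjusted p = 0.0407) and higher at D3.5 in control LE (1.07 ± 0.29, adjusted p = 0.00382). Sesn2 was higher at D3.5 in control LE (1.09 ± 0.27, adjusted p = 0.0015) and was not called in knockout LE (0.26 ± 0.25, adjusted p = 0.434). Ddit3, Trib3 and Chac1 were lower at D3.5 in knockout LE, at log2 fold changes of -1.22 ± 0.27, -2.94 ± 0.64 and -2.06 ± 0.51 with adjusted p values of 0.000745, 0.000538 and 0.00182. In control LE the 3 were not called, at -0.33 ± 0.29, -1.62 ± 0.68 and -0.28 ± 0.53. Ppp1r15a was not called in either genotype, at -0.74 ± 0.32 in knockout LE and 0.62 ± 0.34 in control LE.

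Neutrophil markers fell with the day as well, 8 of 8 tested in knockout LE and 5 of 8 in control LE, and their part in the result was not tested. In summed level they were 4.01 to 18.4 CPM at D3.5 and 935 to 3478 CPM at D0.5 in knockout LE, and 7.99 to 15.2 CPM at D3.5 and 18.7 to 405 CPM at D0.5 in control LE. Gland markers summed to 59.4 to 167 CPM at D3.5 and 79.0 to 1206 CPM at D0.5 in knockout LE, and to 4.81 to 9.21 CPM at D3.5 and 114 to 665 CPM at D0.5 in control LE. Epithelial markers summed to 3297 to 5443 CPM at D3.5 and 2786 to 4910 CPM at D0.5 in knockout LE, and to 3542 to 4326 CPM at D3.5 and 6073 to 11607 CPM at D0.5 in control LE. Erythroid markers summed to 29.0 to 475 CPM at D3.5 and 12.0 to 231 CPM at D0.5 in knockout LE, and to 505 to 2688 CPM at D3.5 and 8.88 to 111 CPM at D0.5 in control LE. In control LE the gland, epithelial and erythroid sums did not overlap between the days, in knockout LE all 3 did, and their part in the result was not tested either. Most translocon, glycosylation and ER to Golgi transport genes outside the set were also lower at D3.5 in LE. Counts of the further ER folding and degradation genes are not given for the days. Of 27 translocon and glycosylation genes 24 were lower and 2 higher in knockout LE, and 20 were lower and 1 higher in control LE. Of 32 ER to Golgi transport genes 30 were lower and 1 higher in knockout LE, and 21 were lower and none higher in control LE. Ero1a, the oxidase that recharges disulphide isomerases, had log2 fold changes of -5.47 in knockout LE and -5.68 in control LE. Of 19 cytosolic heat shock genes 8 were higher and none lower in knockout LE, where 20.2% of all genes were called lower. The share of all genes called higher there is not given, so the 8 cannot be judged against it. In control LE 7 were higher and 3 lower, beside 21.2% and 22.8% of all genes.

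In DU and U the arm medians between the days were smaller than in LE of the same genotype, except for the ATF4/CHOP arm of controls. In knockout DU 25 of 37 genes were lower at D3.5, beside 17.3% of all genes, led by Herpud1 at a log2 fold change of -1.53 ± 0.16 (adjusted p = 1.81e-05). In control DU 8 were lower and 2 higher, beside 18.5% of all genes called lower and 15.9% called higher. In knockout U 22 of 37 genes were lower at D3.5 and 1 was higher, beside 14.6% and 10.9% of all genes. Without the library labelled knockout mouse 33, whose Esr1 level was like that of the controls, 24 genes were called. In control U 7 were lower and 1 higher, beside 18% and 16.2% of all genes. By arm, the ATF6/XBP1 genes called lower numbered 18 of 26 in knockout DU and 3 in control DU, and 15 in knockout U and 2 in control U. The ATF4/CHOP genes called lower numbered 4 of 7 in knockout DU and 3 in control DU, and 5 in knockout U and 4 in control U. The tests of the difference between days in DU and U given above compare these genotypes gene by gene, and of the set only Herpud1 in DU was called. The median log2 fold change was -0.81 in the ATF6/XBP1 arm and -1.06 in the ATF4/CHOP arm of knockout DU, and -0.22 and -0.57 in control DU. In U the medians were -0.61 and -0.83 in the knockout, and -0.12 and -0.44 in controls.

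In DU and U epithelial and neutrophil markers also differed between the days. Epithelial markers summed to 459.7 to 569.8 CPM at D3.5 and 1503 to 1637 CPM at D0.5 in knockout DU, and to 335 to 564 CPM at D3.5 and 1922 to 4234 CPM at D0.5 in control DU. In U they summed to 404 to 877 CPM at D3.5 and 1298 to 1767 CPM at D0.5 in the knockout, and to 421 to 814 CPM at D3.5 and 2157 to 6941 CPM at D0.5 in controls. Neutrophil markers summed to 78.2 to 89.2 CPM at D3.5 and 1233 to 3029 CPM at D0.5 in knockout DU, and to 53.3 to 127 CPM at D3.5 and 1578 to 3040 CPM at D0.5 in knockout U. In controls they summed to 38.4 to 53.9 CPM at D3.5 and 82.7 to 639 CPM at D0.5 in DU, and to 37.2 to 91.7 CPM at D3.5 and 77.7 to 959 CPM at D0.5 in U. The days did not overlap except for neutrophil markers in control U, and the part of both lists in the result was not tested.

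Xbp1 and Asns moved in opposite directions in controls. Xbp1 had 160, 146 and 190 CPM at D3.5 and 644, 526 and 725 CPM at D0.5 in knockout DU, and the days did not overlap (log2 fold change -1.93 ± 0.26, adjusted p = 0.000128). In control DU it had 214, 259 and 274 CPM at D3.5 and 711, 384, 334 and 353 CPM at D0.5, again without overlap (log2 fold change -0.84 ± 0.24, adjusted p = 0.0154). In U it was lower by -1.65 ± 0.19 in the knockout (adjusted p = 2.55e-06) and by -0.71 ± 0.18 in controls (adjusted p = 0.00348). Asns ran the other way in controls, with 28.5, 36.4 and 37.4 CPM at D3.5 and 14.2, 14.3, 12.5 and 18.2 CPM at D0.5 in control DU (log2 fold change 1.21 ± 0.19, adjusted p = 0.000299). It was higher at D3.5 in control U at 1.18 ± 0.23 (adjusted p = 0.000366) and in knockout U at 0.74 ± 0.25 (adjusted p = 0.0362), and was not called in knockout DU at 0.28 ± 0.21 (adjusted p = 0.342).

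Among the remaining ATF4/CHOP genes, Ppp1r15a was lower at D3.5 in each genotype of DU and U, by log2 fold changes of -1.56 ± 0.25 in knockout DU, -1.21 ± 0.23 in control DU, -1.63 ± 0.24 in knockout U and -1.09 ± 0.22 in control U, with adjusted p values from 3.18e-05 to 0.00134. Atf4 was lower in knockout DU (-0.77 ± 0.19, adjusted p = 0.00797), knockout U (-0.67 ± 0.18, adjusted p = 0.00793) and control U (-0.44 ± 0.16, adjusted p = 0.0384). Hspa5 was lower at D3.5 in knockout DU (-1.25 ± 0.26, adjusted p = 0.0031) and knockout U (-1.14 ± 0.28, adjusted p = 0.00493), and was not called in control DU (-0.23 ± 0.24, adjusted p = 0.517) or control U (-0.11 ± 0.26, adjusted p = 0.787).

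**Figure D4:**
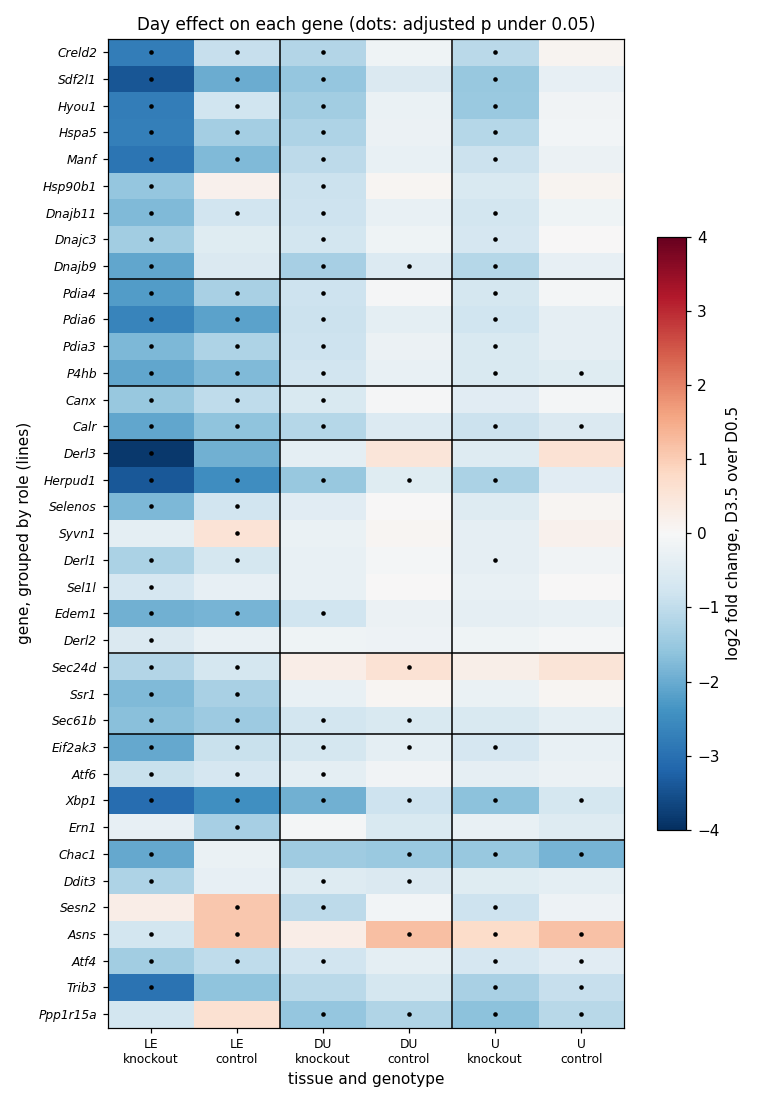
Log2 fold change of D3.5 over D0.5 (colour, blue for lower at D3.5) of the 37 tested genes, grouped by role, in each tissue and genotype, with dots for adjusted p under 0.05. The 2 LE columns are the darkest, with 33 dots of lower genes in the knockout and 24 in controls, and Asns is red in the 3 control columns, at 1.07 in LE, 1.21 in DU and 1.18 in U.

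Because LE was obtained through dispase digestion, DU was set against U in the 13 mice that gave all 3 tissues. In a fit that did not pair the tissues of a mouse, only Ddit3 of the 37 genes was called. It was lower in DU (log2 fold change -0.48 ± 0.16, adjusted p = 0.0428), beside 7.93% of all 16806 genes called lower. Hspa5 (0.02 ± 0.16, adjusted p = 0.962), Xbp1 (-0.25 ± 0.17, adjusted p = 0.334) and Atf4 (-0.16 ± 0.11, adjusted p = 0.303) were not called. With mouse as a block 10 genes were called, 3 higher and 7 lower in DU, beside 25.9% of all genes. Those higher were Ern1 (0.48), Sel1l (0.31) and Atf6 (0.34), and those lower included Sdf2l1 (-0.58, adjusted p = 0.00287), Manf (-0.44) and Ddit3 (-0.44, adjusted p = 0.0143). On TPM 9 genes were higher and none lower, with all genes shifted by 0.19 and the share of all genes called not given.

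LE was set against DU in the same mice, both of which had passed through the digestion. Of 37 genes 27 were higher in LE, beside 30.9% of all genes, and 2 were lower, beside 35.1%. The ATF6/XBP1 arm gave 21 of 26 higher (median log2 fold change 0.69) and the ATF4/CHOP arm 5 of 7 (median 0.52). Among the ATF6/XBP1 genes higher in LE were Syvn1 (1.28 ± 0.12, adjusted p = 3.35e-11), Hsp90b1 (1.05 ± 0.12, adjusted p = 5.65e-09), Derl2 (0.69 ± 0.09, adjusted p = 2.51e-08), Dnajb11 (0.86 ± 0.11, adjusted p = 4.06e-08), Pdia3 (0.83 ± 0.11, adjusted p = 8.09e-08) and Hyou1 (1.12 ± 0.16, adjusted p = 2.04e-07), and those lower were Derl3 (-1.81 ± 0.46, adjusted p = 0.000892) and the COPII coat gene Sec24d (-0.37 ± 0.14, adjusted p = 0.0234). Of the ATF4/CHOP arm Sesn2 (1.36 ± 0.16, adjusted p = 8.19e-09), Ppp1r15a (1.51 ± 0.18, adjusted p = 1.47e-08), Chac1 (2.07 ± 0.31, adjusted p = 5.67e-07), Atf4 (0.48 ± 0.11, adjusted p = 0.000203) and Asns (0.52 ± 0.14, adjusted p = 0.0013) were higher in LE. Hspa5 was higher in LE at 0.72 ± 0.16 (adjusted p = 0.000327), as was the sensor Eif2ak3 at 0.55 ± 0.11 (adjusted p = 4.07e-05). Ddit3 (0.11 ± 0.16) and Trib3 (0.13 ± 0.33) were not called, nor was Xbp1 (0.27 ± 0.17, adjusted p = 0.149). With mouse as a block Xbp1 was called higher in LE (0.24 ± 0.11, adjusted p = 0.0461), and the block changed the call of no other gene of the set in this comparison. With the block 30 genes of the set were called, beside 70% of all genes in either direction. On TPM 12 genes were higher and 8 lower, with all genes shifted by -0.42 and arm medians of 0.14 and 0.00. The share of all genes called on TPM is not given here. The RNA of each tissue was isolated as a batch of its own, and this batch and the tissue cannot be told apart.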

How the data were processed

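RNA of 59 uterine libraries was analysed from tables of 21706 genes. The first holds estimated counts per gene and the second TPM values, both deposited by the authors; the tool kallisto 0.46.1 and the genome build GRCm39 come from the submitters' processing notes, and the step from transcripts to genes is not stated in the sources. The 38 genes, their arms and all other lists were chosen with earlier results of these data known. Further called genes of the set in LE at D0.5 were named after their values were seen.

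Estimated counts were rounded, filtered with filterByExpr (minimum count 10, minimum total 15), scaled by TMM and put through edgeR 4.0.16 (R 4.3.3) and its quasi-likelihood test. One fit per tissue held all 4 genotype and day groups. It tested 15601 genes in LE, 16232 in U and 16194 in DU, with biological coefficients of variation of 0.437, 0.342 and 0.259. Joint fits held 39 libraries of 13 mice with all 3 tissues (16806 genes) or the 46 LE and U libraries (16665 genes). They did not pair the tissues of a mouse, except where mouse was a block. Benjamini-Hochberg adjustment ran over all genes of a comparison. Fits were tested on simulated data.

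Alternatives were median-of-ratios scaling, no filter, DESeq2 1.42.0, limma 3.58.1 on log2(TPM + 1) of genes averaging 1 TPM or more, the compared groups alone, each library left out, knockout mice 35, 36 and 37 left out, and mouse as a block. Of these alternatives, the share of all genes called is given only for the comparisons with mouse as a block. Other counts under them cannot be judged against all genes. Fold changes on log2(TPM + 1) understate those of low genes. Same-numbered libraries come from the same animal, per the labels. Their deviations from the group means correlated at a median of 0.157 between LE and DU, 0.283 between LE and U and 0.363 between U and DU. Within a group every library stands for another mouse. A library's depth limits genes of few counts. Sequences come from RefSeq, build GRCm38.p6.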

Additional observations from a re-analysis of the deposited data

Results flagged for a closer look

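A library far from the rest of its group was looked for in 144 sets of values from groups of 4 to 9 libraries, and 16 sets held one. The rule's rate of about 1 in 20 by chance holds for normally distributed values. It was applied mostly to CPM, with genes near 0 among them, so the 16 cannot be set against that rate. Control mouse 1 recurred: its Xbp1 stood apart at D0.5 in all 3 tissues, at 1661 CPM in LE beside 363 to 987 CPM in the other controls, at 711 CPM in DU beside 334 to 384 CPM, and at 683 CPM in U beside 391 to 497 CPM. Its Herpud1 was 297 CPM in LE, beside 94.7 to 179 CPM. In U at D3.5 control mouse 13 had 1058 CPM of Hspa5 beside 417 to 540 CPM in the other controls, and 255 CPM of Hyou1 beside 117 to 139 CPM. Derl3 was 13.5 CPM in U of control mouse 14 at D3.5, beside 4.44 to 6.97 CPM, and 0.898 CPM in LE of control mouse 16 at D3.5, where the other controls were at 0. Chac1 was 24.8 CPM in LE of knockout mouse 23 at D0.5, beside 3.65 to 11.8 CPM, and 9.13 CPM in LE of control mouse 14 at D3.5, beside 2.40 to 3.19 CPM. Ddit3 was 12.6 CPM in LE of knockout mouse 35 at D3.5, beside 7.59 to 9.36 CPM. The remaining 5 sets were of Ern2, at a few counts: 0.396 CPM in LE of knockout mouse 35 and 0.0572 CPM in U of knockout mouse 37 at D3.5, 0.479 CPM in LE of knockout mouse 21 at D0.5, 0.0432 CPM in U of control mouse 12 at D3.5 and 0.622 CPM in U of control mouse 8 at D0.5.

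The knockout effect differed between D3.5 and D0.5 in LE for 16 genes, by the test of the difference itself in edgeR. On the log2 scale the differences, D3.5 minus D0.5, were -1.86 for Creld2, -1.97 for Hyou1, -1.72 for Hsp90b1, -1.81 for Asns, -1.02 for Dnajb11, -1.02 for Selenos, -1.40 for Hspa5, -1.16 for Eif2ak3, -1.49 for Dnajb9, -0.93 for Syvn1, -1.15 for Manf, -0.59 for Derl1, -0.91 for Dnajc3, -1.43 for Sdf2l1, -0.93 for Pdia4 and -1.36 for Ppp1r15a. In DU it differed between the days for Herpud1, by -1.04. Between tissues at D3.5, LE minus U, it differed for Ppp1r15a, by -1.50.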

How the results depend on the processing

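No fold change of a called gene in a knockout comparison turned its direction. The direction of the DU against U calls depended on the setting, with 1 lower and none higher as reported, 9 higher and none lower on TPM, and 3 higher and 7 lower with mouse as a block. Of the settings tried on single called genes, 481 kept the call and 81 lost it. Counts of called genes of the set that moved by over 1.5 times were these, and the cause was not tested. The share of all genes called is not given beside them. On TPM with limma, knockout against control called 2 in LE at D3.5 and 2 in DU at D0.5, D3.5 against D0.5 called 2 in control DU and 3 in control U, the difference between days called 10 in LE and 0 in DU, LE minus U called 0 at D3.5 and 1 at D0.5, and DU against U called 9. With DESeq2, knockout against control called 3 in U at D0.5 and 1 in DU at D3.5, the difference between days called 6 in DU and 2 in U, and LE minus U called 1 at D0.5. With only the groups compared, knockout against control called 1 in DU at D3.5, 1 in DU at D0.5 and 0 in U at D0.5. With no filter, LE minus U at D3.5 called 0. With mouse as a replicate block, LE minus U at D3.5 called 0 and DU against U called 10, and the block moved neither of the other counts by over 1.5 times, although it added Xbp1 to the genes higher in LE than in DU. Without knockout mice 35, 36 and 37, knockout against control in LE at D3.5 called 1.

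With each library or mouse left out in turn, knockout against control called 3 to 5 in LE at D3.5, 15 to 21 in LE at D0.5, 0 to 0 in DU at D3.5, 1 to 6 in DU at D0.5, 0 to 0 in undigested uterus at D3.5 and 0 to 2 at D0.5. D3.5 against D0.5 called 32 to 34 in knockout LE, 24 to 29 in control LE, 16 to 26 in knockout DU (16 without knockout mouse 27, 32 or 34), 5 to 11 in control DU (5 without control mouse 11), 17 to 24 in knockout U and 5 to 10 in control U (5 without control mouse 11). The difference between days called 11 to 17 in LE, 0 to 3 in DU and 0 to 1 in U. LE minus U called 0 to 2 at D3.5 and 0 to 0 at D0.5. DU against U called 0 to 5 and LE against DU 27 to 29. The ATF4/CHOP median in LE at D3.5 was -0.24 without control mouse 14. Among single genes, Canx in LE at D0.5 lost its call with no filter, and Ssr1 on TPM. Depth limits genes of few counts, such as Derl3, Trib3 and Chac1.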
